A study of Mus musculus with 5 samples.

Results

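The genes described here are *Txnip* (thioredoxin-interacting protein), the related alpha-arrestin genes *Arrdc1*, *Arrdc2*, *Arrdc3* and *Arrdc4*, and the glucose-sensing transcription factor genes *Mlx*, *Mlxip* (MondoA) and *Mlxipl* (ChREBP). They were found by symbol through the annotation of mouse assembly NCBIM37, with 1 identifier for each, and are 8 of the 34615 gene symbols in the data. Their expression was measured by RNA sequencing of brain microvascular fragments from 3 wild-type (WT) mice and 2 littermates heterozygous for Ins2-AKITA, all untreated males on a C57BL6 background between 26 and 38 weeks of age. Each mouse gave 1 library, with an estimated 1137527 to 2874436 fragments. The Ins2-AKITA allele is a germline point mutation in the insulin 2 gene that damages pancreatic beta cells, so the mice are hyperglycemic and also low in insulin, and the effects of high glucose and of low insulin cannot be told apart. WT mice carry no mutated allele, and no other allele or agent is named for either genotype. The fragments had been pulled down with beads that bind PECAM1, and they hold endothelial cells together with attached pericytes and astrocyte end-feet. *Ins2* itself was listed at 0 FPKM in 4 mice and at 1.51 FPKM in WT replicate 3. Its level is no check of the genotype labels, because the mutation changes the protein and *Ins2* is not a gene of brain vessels.

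TXNIP is an arrestin-fold protein that binds thioredoxin and holds back glucose uptake, and its gene is among those that respond most directly to glucose. When glucose enters a cell, the glucose-6-phosphate made from it lets MondoA or ChREBP, each paired with its obligate partner MLX, bind carbohydrate response elements near target genes such as *Txnip* and *Arrdc4*. TXNIP in turn promotes the removal of the glucose transporters GLUT1 and GLUT4 from the cell surface, which closes a feedback loop. ARRDC1 to ARRDC4 share the fold and act as adaptors that bring Nedd4-family ubiquitin ligases to membrane proteins. The comparison of the genotypes therefore asks whether this glucose-sensing module stood at another level in brain microvessels of hyperglycemic mice.

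Promoter sequences are shown first, for the pair of members that are textbook targets of MondoA and ChREBP. All 8 members had an entry in the RefSeq promoter table of GRCm38.p6, 11 entries in all, each with 250 bases before and 50 bases after a transcription start. They were searched on both strands for the carbohydrate response element, written as 2 copies of CACGNG with any 5 bases between them, and for the E-box CACGTG, which can lie within the longer motif. The motif letters were chosen with the known element of *Txnip* in mind. They hold both copies in the same orientation, so an element with inverted copies can be missed. Capitals mark the match.
Txnip, chr3:96557707-96558006, plus strand: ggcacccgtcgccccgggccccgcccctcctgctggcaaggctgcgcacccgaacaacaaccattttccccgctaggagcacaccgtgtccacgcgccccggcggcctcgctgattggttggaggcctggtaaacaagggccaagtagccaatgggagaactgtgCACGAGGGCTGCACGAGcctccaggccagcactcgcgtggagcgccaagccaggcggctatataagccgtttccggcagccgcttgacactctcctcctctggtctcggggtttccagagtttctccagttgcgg
Arrdc4, chr7:68749189-68749488, minus strand: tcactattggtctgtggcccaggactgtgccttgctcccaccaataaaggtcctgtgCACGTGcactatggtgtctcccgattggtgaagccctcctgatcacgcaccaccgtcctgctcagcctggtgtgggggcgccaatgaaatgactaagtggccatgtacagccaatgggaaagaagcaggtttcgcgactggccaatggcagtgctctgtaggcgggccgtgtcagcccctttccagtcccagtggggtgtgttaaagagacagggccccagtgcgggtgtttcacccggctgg
*Txnip* held 1 match to the longer motif, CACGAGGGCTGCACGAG, which starts 85 bases upstream of the transcription start. Of all 32851 promoters in the table, 16 held such a match, or 0.0487%, and *Txnip* was the one member among them. The E-box occurred in 7.15% of all promoters and in 1 promoter each of *Arrdc4*, *Mlx* and *Mlxipl*, at 193, 40 and 98 bases upstream. A match describes the letters in this window and was not tested as a binding site.

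Expression is given as deposited, in FPKM, a fragment count divided by the exon length of the gene and by the depth of the library, which allows levels of different genes to be set side by side. *Txnip* had the highest FPKM of the 8 genes in all 5 mice, and its range did not meet that of the next gene. Ordered by mean FPKM over the 5 mice, *Txnip* (42.9) was followed by *Mlx* (14.7), *Arrdc3* (14.1), *Arrdc1* (11.7), *Mlxip* (7.78), *Arrdc2* (6.39), *Arrdc4* (4.57) and *Mlxipl* (2.03). Below *Txnip* the order was loose. The ranges of every pair of neighbours overlapped, and *Mlx* stood above *Arrdc3*, *Arrdc3* above *Arrdc1* and *Mlxip* above *Arrdc2* in 3 of 5 mice each.

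**Figure D1:**
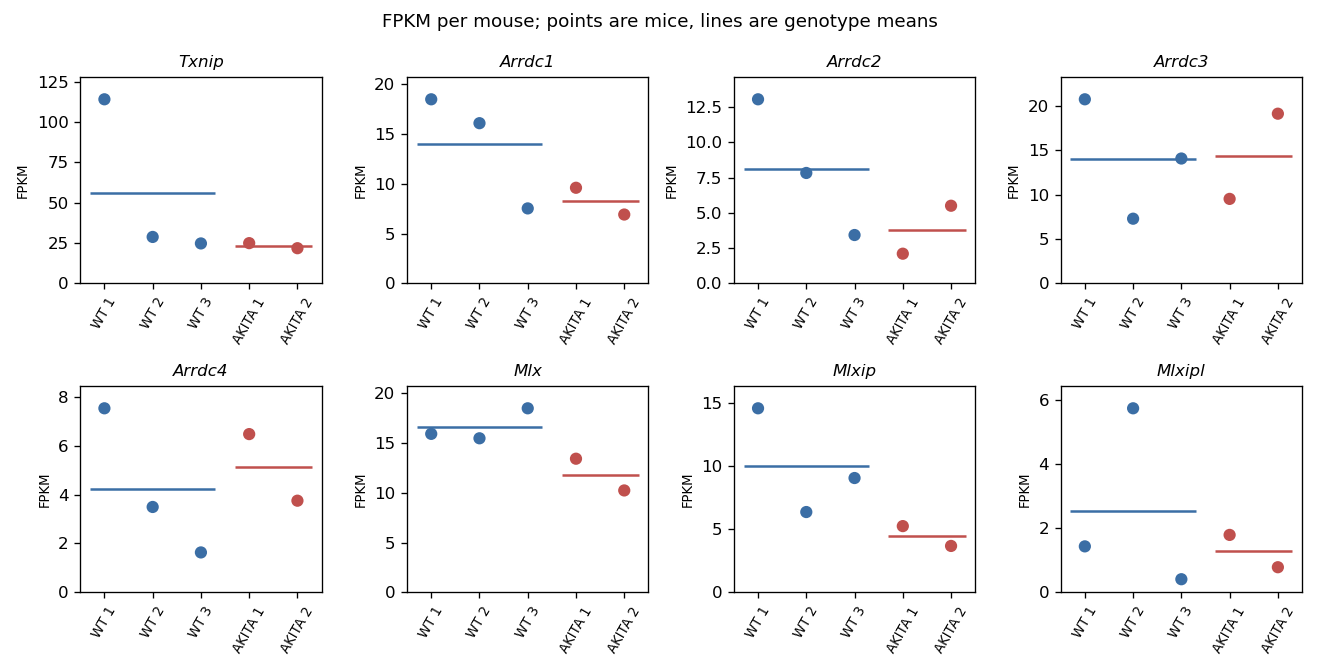
FPKM (vertical axes, each starting at 0) of the 8 genes in each mouse, with WT replicates 1 to 3 in blue, Ins2-AKITA (AKITA) replicates 1 and 2 in red, and the genotype mean as a line. *Txnip* reached 114 FPKM in WT replicate 1 and lay between 21.8 and 28.8 in the other 4 mice, while *Mlx* and *Mlxip* were lower in both Ins2-AKITA mice than in any WT mouse.

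*Txnip* (ENSMUSG00000038393, chromosome 3 of NCBIM37 from 96361880 to 96365806, plus strand) had 114, 28.8 and 24.8 FPKM in WT replicates 1, 2 and 3. In Ins2-AKITA replicates 1 and 2 it had 25.0 and 21.8 FPKM. Thus 4 of the 5 mice, of both genotypes, lay close together and WT replicate 1 stood apart, 3.96-fold above the next highest mouse. The genotypes overlapped, since Ins2-AKITA replicate 1 was above WT replicate 3. The means were 55.9 ± 50.4 FPKM (SD, n = 3) in WT and 23.4 ± 2.22 FPKM (SD, n = 2) in Ins2-AKITA mice, a 2.39-fold lower mean in the latter. On the log2(FPKM + 1) scale used for all tests, the fold change was -0.87 (standard error 0.64, 95% interval from -2.41 to 0.67, adjusted p = 0.90 from limma, exact two-sided permutation p = 0.6). Without WT replicate 1 the WT mean was 26.8 FPKM, 1.15-fold above the Ins2-AKITA mean, and the log2 fold change was -0.19. At most 344 fragments lay behind the value of WT replicate 1, a counting error of at least 5.39%.

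A long noncoding RNA gene, *Gm15441*, lies across *Txnip* on the opposite strand. It had 1.98 FPKM in WT replicate 1, 1.81 in Ins2-AKITA replicate 2, 0.812 in WT replicate 3 and 0 in the other 2 mice. The library kit keeps the strand, but the strand setting used for counting is not given in the sources used here.

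The value of *Txnip* in WT replicate 1 was one of many in that mouse. Of 10472 protein-coding genes with a mean of at least 5 FPKM, 86 were highest in WT replicate 1 by at least 1 on the log2 scale, and *Txnip* ranked 11 by the size of this gap. Over all genes tested, such a gap was seen for 2.13% in WT replicate 1, 1.28% in WT replicate 2, 0.27% in WT replicate 3, 0.976% in Ins2-AKITA replicate 1 and 0.534% in Ins2-AKITA replicate 2. WT replicate 3 was the deepest library, with an estimated 2874436 fragments beside 1137527 to 1328242 in the other mice. The part of depth in these shares was not tested. The 5 genes with the profile most like *Txnip*, by the Euclidean distance between mean-centred log2(FPKM + 1) values over the 5 mice, were *Arl4d* (distance 0.28), *Cdkn1a* (0.32), *Hif3a* (0.42), *Galntl2* (0.49) and *Ctgf* (0.51). *Cdkn1a*, which encodes the cell cycle inhibitor p21, stood at 36.1, 6.69 and 6.91 FPKM in the WT replicates, against 8.07 and 6.01 FPKM with Ins2-AKITA. *Hif3a*, a member of the hypoxia-inducible factor family, stood at 16.01, 2.28 and 3.06 FPKM in the WT replicates, against 2.92 and 1.94 FPKM with Ins2-AKITA. In each of the 5 profiles WT replicate 1 was the high mouse, which follows from picking them by likeness to *Txnip*. The nearest member was *Mlxip*, at rank 181 of 10471 genes and a distance of 1.099.

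**Figure D2:**
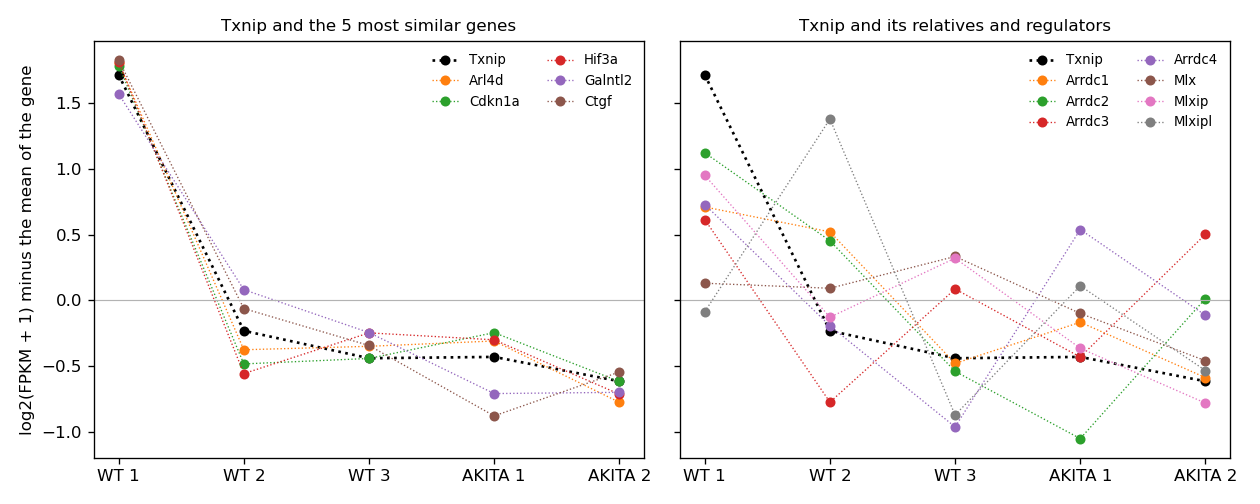
Log2(FPKM + 1) minus the mean of each gene (vertical axis) in the 5 mice (horizontal axis), for *Txnip* in black with its 5 most similar genes (left) and with the other 7 members (right); dotted lines join the points of a gene and carry no order. The 5 genes on the left were picked for likeness to *Txnip*, so they share its high value in WT replicate 1. On the right *Mlx* was highest in WT replicate 3 and *Mlxipl* in WT replicate 2.

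*Txnip* is also known to be induced by glucocorticoids. In a list of 14 glucocorticoid-induced genes, 12 were highest in WT replicate 1, against 28.4% of all genes tested. In that mouse 3 of the 14 exceeded every other mouse by at least 1 on the log2 scale, against 2.13% of all genes. They include *Cdkn1a*, picked above for its likeness to *Txnip*. *Fkbp5*, a cochaperone of the glucocorticoid receptor, stood at 37.1, 8.99 and 7.67 FPKM in the WT replicates, against 6.69 and 10.3 FPKM with Ins2-AKITA. *Tsc22d3*, which encodes the anti-inflammatory protein GILZ, stood at 80.6, 20.9 and 42.1 FPKM in the WT replicates, against 15.9 and 24.7 FPKM with Ins2-AKITA. All 14 genes had a log2 fold change below 0 with every mouse in the fit (median -0.43, beside -0.03 over all genes), 7 of 14 without WT replicate 1 (median -0.06), and 12 without WT replicate 3 (median -0.70). None of the 14 passed the adjusted threshold in limma. At an unadjusted p under 0.05 from limma there was 1 gene, *Per1*, beside 4.46% of all genes. The part of a glucocorticoid response in the *Txnip* value was not tested.

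Among the other alpha-arrestins, *Arrdc1* and *Arrdc2* had lower means and *Arrdc3* and *Arrdc4* slightly higher means in Ins2-AKITA than in WT mice, all with overlapping genotypes. *Arrdc1* (ENSMUSG00000026972, chromosome 2 from 24780872 to 24790772, minus strand) encodes the adaptor that recruits TSG101 to bud vesicles from the plasma membrane. It stood at 18.5, 16.1 and 7.53 FPKM in the WT replicates, against 9.60 and 6.92 FPKM with Ins2-AKITA. WT replicate 3 lay between the Ins2-AKITA mice, and the log2 fold change was -0.63 (standard error 0.41, 95% interval from -1.62 to 0.36, adjusted p = 0.90 from limma). It was -0.99 without WT replicate 3 and -0.40 without WT replicate 1.

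*Arrdc2* (ENSMUSG00000002910, chromosome 8 from 73359054 to 73363619, minus strand) stood at 13.1, 7.83 and 3.43 FPKM in the WT replicates, against 2.11 and 5.51 FPKM with Ins2-AKITA. WT replicate 1 was again the highest mouse, and WT replicate 3 lay between the Ins2-AKITA mice. The log2 fold change was -0.87 (standard error 0.58, 95% interval from -2.26 to 0.53, adjusted p = 0.90 from limma), and it moved to -0.33 without Ins2-AKITA replicate 1, -0.48 without WT replicate 1, -1.31 without WT replicate 3 and -1.40 without Ins2-AKITA replicate 2. In Ins2-AKITA replicate 1 at most 5.03 fragments lay behind the value, a counting error of at least 44.6%.

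*Arrdc3* (ENSMUSG00000074794, chromosome 13 from 81022645 to 81035296, plus strand), whose product takes part in the turnover of the beta2-adrenergic receptor, stood at 20.7, 7.28 and 14.1 FPKM in the WT replicates, against 9.51 and 19.1 FPKM with Ins2-AKITA. Each genotype held a high and a low mouse, and the means were almost equal, at 14.0 ± 6.72 FPKM (SD, n = 3) and 14.3 ± 6.78 FPKM (SD, n = 2). At 0.06, its log2 fold change (standard error 0.48, 95% interval from -1.101 to 1.22, adjusted p = 0.99 from limma) had an interval reaching past 1 on both sides. It changed sign without WT replicate 2 (-0.32) and without Ins2-AKITA replicate 2 (-0.41).

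*Arrdc4* (ENSMUSG00000042659, chromosome 7 from 75881931 to 75894127, minus strand), the closest relative of *Txnip* in this family, stood at 7.52, 3.49 and 1.63 FPKM in the WT replicates, against 6.47 and 3.75 FPKM with Ins2-AKITA. It shared the peak of *Txnip* in WT replicate 1, but Ins2-AKITA replicate 1 came near it, and both Ins2-AKITA mice were above WT replicates 2 and 3. The log2 fold change was 0.36 (standard error 0.55, 95% interval from -0.99 to 1.70, adjusted p = 0.93 from limma). It was 0.79 without WT replicate 1, 0.68 without Ins2-AKITA replicate 2, 0.03 without Ins2-AKITA replicate 1 and -0.06 without WT replicate 3. At most 16.8 to 31.6 fragments per mouse lay behind these values. The ratio of *Txnip* to *Arrdc4* FPKM was 15.2, 8.25 and 15.2 in WT and 3.86 and 5.82 with Ins2-AKITA, lower in both Ins2-AKITA mice than in any WT mouse. This ratio was computed after the values had been seen and was not tested.

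*Mlx* and *Mlxip*, which encode the subunits of the MondoA complex, were the members with separate genotypes. *Mlx* (ENSMUSG00000017801, chromosome 11 from 100948591 to 100953521, plus strand) stood at 15.9, 15.5 and 18.5 FPKM in the WT replicates, against 13.4 and 10.2 FPKM with Ins2-AKITA. It was the steadiest of the 8 genes among WT mice, with a coefficient of variation of 9.78%. The means were 16.6 ± 1.63 FPKM (SD, n = 3) and 11.8 ± 2.25 FPKM (SD, n = 2), a 1.41-fold lower mean with Ins2-AKITA. The log2 fold change was -0.47 (standard error 0.23, 95% interval from -1.03 to 0.10, unadjusted p = 0.089 and adjusted p = 0.90 from limma, exact two-sided permutation p = 0.1, the smallest that 10 splits of the mice allow). It lay between -0.65 and -0.29 with each mouse left out in turn, and was -0.29 without Ins2-AKITA replicate 2. *Psmc3ip*, a gene on the opposite strand that shares 385 bases with *Mlx*, had between 2.93 and 7.03 FPKM.

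*Mlxip* (ENSMUSG00000038342, chromosome 5 from 123844807 to 123915306, plus strand) stood at 14.6, 6.36 and 9.05 FPKM in the WT replicates, against 5.25 and 3.68 FPKM with Ins2-AKITA. Both Ins2-AKITA mice were below all WT mice, with WT replicate 1 the highest. The means were 9.99 ± 4.18 FPKM (SD, n = 3) and 4.46 ± 1.11 FPKM (SD, n = 2), a 2.24-fold lower mean with Ins2-AKITA. *Mlxip* had the lowest unadjusted p of the 8 genes, with a log2 fold change of -0.96 (standard error 0.39, 95% interval from -1.89 to -0.02, unadjusted p = 0.047 and adjusted p = 0.90 from limma, exact two-sided permutation p = 0.2). Without WT replicate 1 it was -0.67, and with each mouse left out in turn it lay between -1.21 and -0.67. *Gm15747*, a gene on the opposite strand that shares 3160 bases with *Mlxip*, had 3.72 FPKM in Ins2-AKITA replicate 1 and 0 in the other mice.

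*Mlxipl* (ENSMUSG00000005373, chromosome 5 from 135582761 to 135614254, plus strand), the ChREBP gene best known from liver and fat, was the lowest of the 8 genes in 4 of the 5 mice. It stood at 1.43, 5.74 and 0.411 FPKM in the WT replicates, against 1.79 and 0.785 FPKM with Ins2-AKITA. WT replicate 2 alone was raised, with at most 26.0 fragments, and in the other mice at most 3.47 to 6.94 fragments were counted. Its log2 fold change, -0.35 (standard error 0.74, 95% interval from -2.15 to 1.45, adjusted p = 0.96 from limma), became 0.27 without WT replicate 2, -0.03 without Ins2-AKITA replicate 2, -0.67 without Ins2-AKITA replicate 1 and -0.86 without WT replicate 3. *Mlxip* exceeded *Mlxipl* in every mouse, by 10.2-fold, 1.11-fold and 22.0-fold in WT and by 2.93-fold and 4.68-fold in Ins2-AKITA mice.

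Of the 16286 genes with a mean of at least 1 FPKM, 4 (0.0246%) were lower and 0 (0%) were higher in Ins2-AKITA mice at an adjusted p under 0.05 from limma. All 8 members entered this test and none was called, with a smallest adjusted p of 0.90. At an unadjusted p under 0.05 there was 1 member, *Mlxip*, among the 2.93% of all genes that were lower and 1.53% that were higher at this threshold. The unadjusted limma p of *Mlxip* was not under 0.05 in 9 of 14 alternatives, among them the fits without WT replicate 1 (0.11) and without WT replicate 3 (0.085). *Arrdc1* was under 0.05 by unadjusted limma p with the replicate block (0.024) and without WT replicate 3 (0.016). So was *Arrdc2* without WT replicate 3 (0.044). None of these passed after adjustment. Both Ins2-AKITA mice were below all WT mice for 2 of the 8 members (*Mlx* and *Mlxip*) and for 10.3% of all genes, and above all WT mice for 0 members and for 9.24% of all genes. The log2 fold change was below 0 for 6 members, beside 53.5% of all genes, with a median of -0.55 beside -0.03. WT replicate 1 was the highest mouse for 6 of the 8 members, beside 28.4% of all genes, namely for *Txnip*, *Arrdc1*, *Arrdc2*, *Arrdc3*, *Arrdc4* and *Mlxip*. The median of the members was -0.43 without WT replicate 1, -0.41 without Ins2-AKITA replicate 2 and -0.92 without WT replicate 3.

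**Figure D3:**
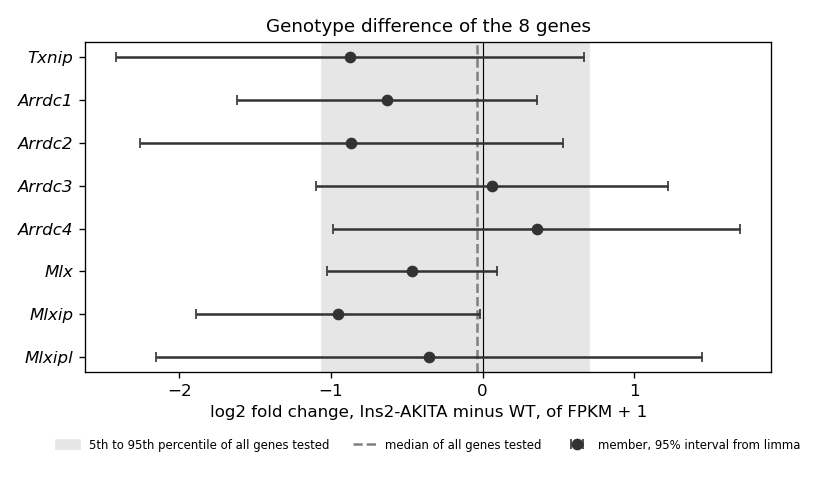
Log2 fold change of FPKM + 1, Ins2-AKITA minus WT (horizontal axis), of the 8 genes with its 95% interval from limma; the grey band spans the 5th to 95th percentile of the 16286 genes tested and the dashed line is their median. The point estimates run from -0.96 for *Mlxip* to 0.36 for *Arrdc4*, and the intervals of 7 genes include 0.

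**Figure D4:**
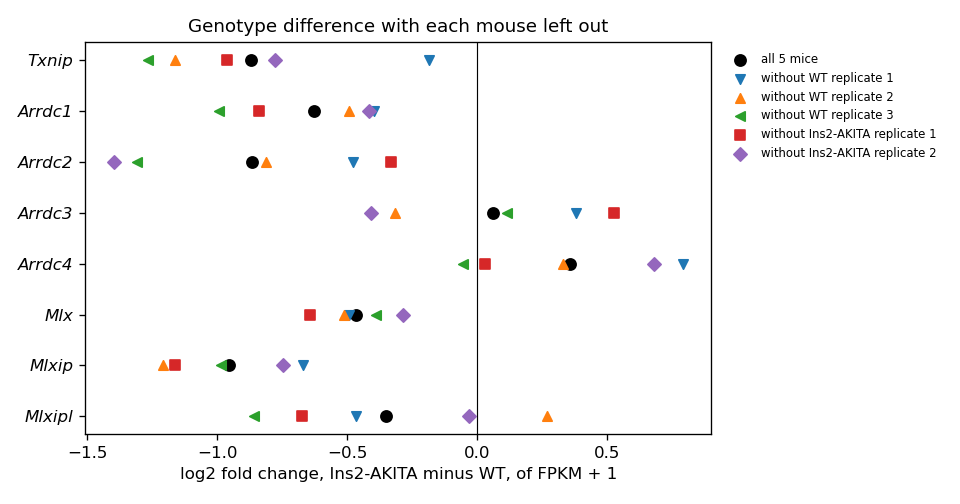
Log2 fold change of FPKM + 1, Ins2-AKITA minus WT (horizontal axis), of the 8 genes with all 5 mice (black) and with each mouse left out. *Txnip* moved from -0.87 to -0.19 without WT replicate 1, whereas *Mlx* stayed between -0.65 and -0.29.

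Levels of cell type markers in the fragments also differed between mice, and in bulk RNA fewer cells of a type and less RNA per cell cannot be told apart. All 10 endothelial markers were detected, with a summed level of 486 to 848 FPKM in WT and 420 to 507 FPKM in Ins2-AKITA mice. Of these, 9 of 10 had a log2 fold change below 0, and no marker of any list was called by limma. The 4 smooth muscle markers were lower in both Ins2-AKITA mice than in any WT mouse, as were 3 of the 10 endothelial markers and 10.3% of all genes. The smooth muscle sums were 212 to 249 FPKM in WT and 129 to 166 in Ins2-AKITA mice. The 6 astrocyte markers had sums of 2081 to 2885 FPKM in WT and 3263 to 3861 in Ins2-AKITA mice. *Mlx* and *Mlxip* had their lower values in the same mice as the smooth muscle markers, as would any gene lower in both Ins2-AKITA mice. The part of cell composition in the values of *Mlx* and *Mlxip* was not tested. The sums overlapped for most other cell types, with 199.9 to 255 and 174 to 219.9 FPKM for 7 pericyte markers and 73.1 to 123 and 98.7 to 111 for 7 microglia markers in WT and Ins2-AKITA mice. For 7 neuron markers the sums were 739 to 919 and 776 to 855 FPKM, and for 6 oligodendrocyte markers 1926 to 2613 and 2096 to 2302, so RNA of brain parenchyma was abundant in both genotypes. For 5 fibroblast markers they were 28.7 to 33.0 and 31.3 to 36.2 FPKM, and for 5 erythroid markers, which were lower in both Ins2-AKITA mice in sum, 35.1 to 67.7 and 25.1 to 32.4. No marker was at 0 in all mice.

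The partners and targets of the 8 genes were followed in 6 further lists, and limma called none of their genes at the adjusted threshold (smallest adjusted p = 0.90). The thioredoxin system, which includes the thioredoxin that TXNIP binds, had 12 of 16 genes with a log2 fold change above 0. The median was 0.25, with 0 genes at an unadjusted p under 0.05 from limma. Without Ins2-AKITA replicate 2 the median was 0.03, with 8 genes above and 8 below 0. Thioredoxin 1 (*Txn1*) stood at 16.6, 6.42 and 9.37 FPKM in the WT replicates, against 11.8 and 10.4 FPKM with Ins2-AKITA, and *Txnip* exceeded it in every mouse, by 2.10-fold to 6.87-fold. *Srxn1* (sulfiredoxin, which repairs oxidized peroxiredoxins) stood at 26.4, 17.02 and 26.2 FPKM in the WT replicates, against 29.9 and 49.96 FPKM with Ins2-AKITA. *Glrx2*, a mitochondrial glutaredoxin, stood at 12.3, 23.4 and 21.8 FPKM in the WT replicates, against 25.1 and 37.6 FPKM with Ins2-AKITA. Both genes were higher in the Ins2-AKITA mice than in any WT mouse, with log2 fold changes of 0.74 and 0.70. They were named for having the smallest limma p of the list. In all, 3 of the 16 genes were higher than in any WT mouse, beside 9.24% of all genes. Lower than in any WT mouse was 1 of the 16, beside 10.3% of all genes.

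Targets of MondoA and ChREBP other than *Txnip* and *Arrdc4* gave no uniform picture. Of 25 genes listed, 24 were matched and 19 had a mean of at least 1 FPKM. Their log2 fold changes were below 0 for 7 and above 0 for 12 (median 0.06), and 0 had an unadjusted p under 0.05. The median moved between 0.02 without WT replicate 1 and 0.19 without WT replicate 3. Among the lipogenic targets was *Mid1ip1*, an activator of acetyl-CoA carboxylase, with 27.7, 31.6 and 69.3 FPKM in the WT replicates, against 52.9 and 88.7 FPKM with Ins2-AKITA. *Klf10*, a glucose-induced repressor, stood at 3.11, 4.24 and 9.82 FPKM in the WT replicates, against 5.10 and 4.14 FPKM with Ins2-AKITA. Unlike for *Txnip*, WT replicate 1 was the highest mouse for 0 of the 19 genes.

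In the wider Myc-Max-Mlx network of dimerizing transcription factors, 6 of 10 genes had a log2 fold change below 0 (median -0.22). The median was -0.04 without Ins2-AKITA replicate 2, and 0.08 over the 7 genes with a mean of at least 5 FPKM. *Myc* stood at 2.43, 6.54 and 3.48 FPKM in the WT replicates, against 0.576 and 0.506 FPKM with Ins2-AKITA (log2 fold change -1.66, standard error 0.49, unadjusted p = 0.013 and adjusted p = 0.90 from limma). These Ins2-AKITA values are low. For *Mlxipl*, 3 fragments correspond to at least 0.774 and 0.678 FPKM in Ins2-AKITA replicates 1 and 2. The fragments behind *Myc* were not estimated, so its counting error is not known. *Max*, the partner of MYC, stood at 22.6, 26.8 and 27.9 FPKM in the WT replicates, against 39.5 and 29.6 FPKM with Ins2-AKITA. The genotypes did not overlap for either gene, with *Myc* lower and *Max* higher in Ins2-AKITA mice. Of the 10 genes, 2 were lower and 1 higher than in any WT mouse, beside 10.3% and 9.24% of all genes. *Myc* was the 1 gene of the 10 at an unadjusted p under 0.05 from limma, beside 4.46% of all genes.

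Among 19 genes for Nedd4-family ligases, vesicle budding proteins and cargo, the partners of the alpha-arrestins, 11 had a log2 fold change below 0. The other 8 were above 0, and the median of the list was -0.06. This median was -0.18 without Ins2-AKITA replicate 2 and 0.04 without Ins2-AKITA replicate 1. At an unadjusted p under 0.05 from limma there was 1 of the 19, *Ndfip1*, an activator of these ligases, beside 4.46% of all genes. The ligase gene *Itch* stood at 19.4, 15.4 and 17.3 FPKM in the WT replicates, against 17.4 and 18.3 FPKM with Ins2-AKITA. *Tsg101*, the vesicle sorting partner of ARRDC1, stood at 15.9, 18.8 and 13.6 FPKM in the WT replicates, against 11.8 and 18.8 FPKM with Ins2-AKITA. *Slc2a1* (GLUT1), the transporter whose surface level TXNIP limits, was, like *Txnip*, highest in WT replicate 1, with 273 FPKM beside 105 to 167 in the other mice.

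The classical arrestins and other arrestin-fold genes had 6 of 8 log2 fold changes above 0 (median 0.14), and the median was 0.02 without WT replicate 3 and 0.04 without Ins2-AKITA replicate 2. *Dscr3*, a sorting protein with an arrestin fold, stood at 9.32, 13.1 and 12.01 FPKM in the WT replicates, against 20.5 and 25.5 FPKM with Ins2-AKITA, with a log2 fold change of 0.95 (standard error 0.25, unadjusted p = 0.0076 and adjusted p = 0.90 from limma). Of the inflammasome genes tied to TXNIP, *Nlrp3* stayed under the filter with 1.81, 0.627 and 0.581 FPKM in the WT replicates, against 0.734 and 0 FPKM with Ins2-AKITA, and *Il1b* was listed at 0 in all mice. *Pycard*, the inflammasome adaptor, was, like *Txnip*, highest in WT replicate 1, at 7.99 FPKM beside 1.504 to 2.08 in the other mice. WT replicate 1 was the highest mouse for 28.4% of all genes, and by at least 1 on the log2 scale for 2.13%. The fragments behind these low values of *Pycard* were not estimated. *Il18* stood at 16.2, 15.9 and 23.6 FPKM in the WT replicates, against 37.2 and 26.3 FPKM with Ins2-AKITA, with a log2 fold change of 0.75 (unadjusted p = 0.032 and adjusted p = 0.90 from limma). By unadjusted p, 1 of the 8 arrestin-fold genes (*Dscr3*) and 1 of the 2 inflammasome genes tested (*Il18*) were under 0.05, beside 4.46% of all genes.

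Of 14 immediate early genes, which are known to rise within minutes of a stimulus, WT replicate 1 was the highest mouse for 2, beside 28.4% of all genes. Their log2 fold changes had a median of -0.38, with 12 below 0. Both Ins2-AKITA mice were below all WT mice for 7 of the 14, beside 10.3% of all genes. The unadjusted p from limma was under 0.05 for 4 of them, beside 4.46% of all genes. The number was 1 without WT replicate 3 or with the replicate block. It was 2 without WT replicate 1, with quantile normalization or with a constant prior variance, and 3 or 4 in the remaining fits that kept both Ins2-AKITA mice. The smallest p was that of *Zfp36*, an RNA decay factor, with 13.7, 8.70 and 9.86 FPKM in the WT replicates, against 2.26 and 3.98 FPKM with Ins2-AKITA (log2 fold change -1.52, adjusted p = 0.82 from limma).

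**Figure D5:**
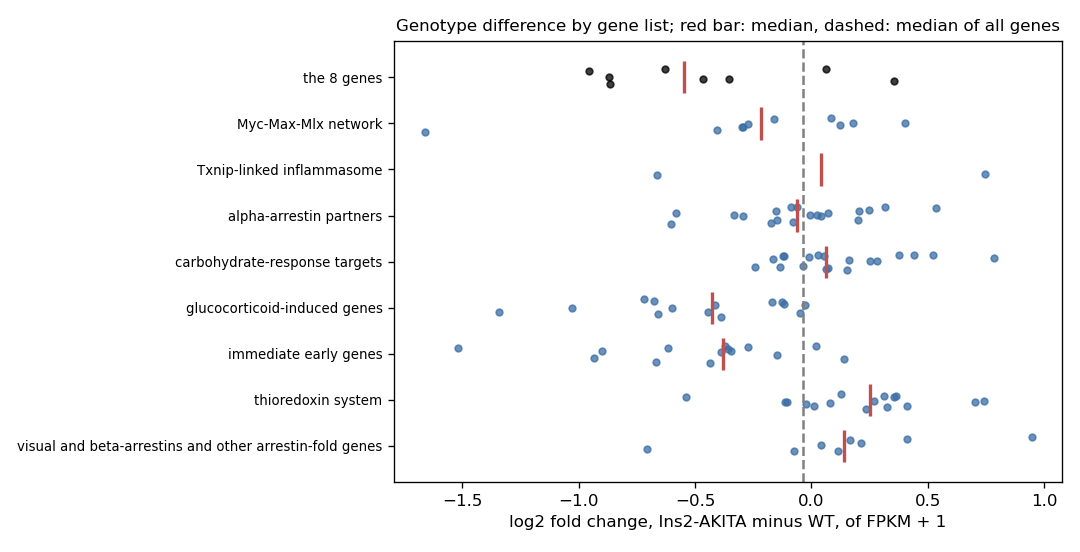
Log2 fold change of FPKM + 1, Ins2-AKITA minus WT (horizontal axis), of each tested gene (points) in the 8 genes and in the lists of partners and responses, with list medians as red bars and the median of all genes dashed. Medians run from -0.55 for the 8 genes to 0.25 for the thioredoxin system with all 5 mice, and shift to -0.92 without WT replicate 3 and to 0.03 without Ins2-AKITA replicate 2, respectively.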

How the data were processed

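Total RNA of 5 mice was depleted of ribosomal RNA, and stranded libraries were prepared with a low-input kit and sequenced. The authors mapped the reads to NCBIM37 with TopHat2 (version 2.0.4), filtered duplicates with Picard (version 1.92) and ran Cufflinks (version 2.2.1). They deposited 1 FPKM value per Ensembl gene identifier and mouse, not pooled. The program that made these values and the Ensembl release are not given in the sources used here. Removing duplicates can lower highly expressed genes.

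The GENCODE vM1 annotation, made on NCBIM37, held 37197 of 37982 identifiers, and rows sharing a symbol were summed. Genes with a mean of at least 1 FPKM were tested on log2(FPKM + 1) with limma 3.58.1 in R 4.3.3 (lmFit, eBayes with a trend, two-sided), with Benjamini-Hochberg adjustment over all of them. Fold changes on this scale understate those of low genes. Permutation tests used all 10 splits of the mice. Python 3.11.15 was used otherwise. The fit was tested on simulated data.

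Depth was read from the spacing of small FPKM values in genes with 1 transcript, of which 97.3% to 97.9% per mouse were whole fragments (tolerance 0.05). It came to 1137527 to 2874436 fragments. Fragments behind a member were computed with its longest transcript and are upper limits; they cover counting error only.

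The members and lists were chosen with earlier results of these data known. Besides the members, the 3 genes per list with the smallest limma p, fixed partners of the members, and the 5 genes most like *Txnip* could be named; *Fkbp5* and *Il1b* were named after their values were seen, as was the ratio of *Txnip* to *Arrdc4*. Replicate numbers in the labels are shared by both genotypes but are not said to mark pairs, so they were not used as a block in the reported values. Alternatives were another pseudocount, other filters, 3 scalings, a constant prior, the replicate block, the highest row per symbol, and each mouse left out. *Tkfc* had no match.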

Additional observations from a re-analysis of the deposited data

How the results depend on the processing

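None of the 8 genes, no gene of the pathway lists and no cell type marker passed the adjusted threshold under any alternative run, and *Txnip*, *Arrdc1*, *Arrdc2*, *Mlx* and *Mlxip* kept a log2 fold change below 0 in each. Of 110 values of the 8 genes, 105 kept their direction and 5 reversed. The filters, the constant prior and the highest row per symbol leave a member's fold change unchanged, so these values could not reverse. *Arrdc4* (-0.055) reversed with the replicate block and without WT replicate 3. These values are the same estimate, because WT replicate 3 has no same-numbered partner and the block takes it out of the genotype difference. *Arrdc3* reversed without WT replicate 2 (-0.32) and without Ins2-AKITA replicate 2 (-0.41), and *Mlxipl* without WT replicate 2 (0.27). The cause of the reversals was not tested. With each mouse left out, *Arrdc3* ranged from -0.41 to 0.53, *Arrdc4* from -0.055 to 0.79 and *Mlxipl* from -0.86 to 0.27. With the filter at 5 FPKM *Arrdc4* and *Mlxipl* were not tested. Scaling kept the median of all genes between -0.07 and 0.03.

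With the replicate block, 5 genes were lower and 0 higher, and the smallest adjusted p of the 8 genes was 0.60; *Txnip* was at -1.27 and *Arrdc1* at -0.99. Same-numbered mice had deviations correlated at 0.05 and -0.03, which does not show that the numbers pair the mice, and WT replicate 3 has no partner there. Over all genes, the number higher (0) became 1 with a constant prior, and the number lower (4) became 2 with no filter, with the filter at 5 and with a constant prior. With each mouse left out it ranged from 0 to 10 higher and from 2 to 10 lower; with 1 Ins2-AKITA mouse left, that mouse is assumed to vary like the WT mice. For *Mlxipl*, 3 fragments correspond to at least 0.306 to 0.774 FPKM depending on the mouse, and at most 3.47 fragments lay behind its value in Ins2-AKITA replicate 2.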
